A study of Mus musculus with 10 samples.

Results

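The comparison described here sets the arrays labelled Foxp3-transduced against the arrays labelled Foxp3(-) and asks what the label does in common across both kinds of starting cell. It uses 8 of the 10 arrays of the series, 4 Foxp3-labelled and 4 Foxp3(-), with the starting cell as a block; the arrays labelled Foxp3(+) stayed out of the fit. All cells were CD4+ splenocytes of mice carrying the DEREG transgene, in which the Foxp3 promoter drives GFP, on a Balb/c background. They were sorted by GFP, stimulated through CD3 and CD28, transduced with the pGCSamIN retrovirus, whose marker is NGFR, and sorted again as NGFR+ cells. Scurfy Foxp3 denotes GFP+ cells given the Foxp3 virus, and scurfy mock denotes GFP+ cells labelled Foxp3(-). The numbered sample descriptions mark these 4 arrays D_S, read here as DEREG/Scurfy, a strain with a mutated Foxp3 gene, although the strain field gives DEREG on Balb/c for every array. Tconv Foxp3 and Tconv mock denote GFP- conventional T cells with the Foxp3 and the empty virus. Each group had 2 arrays. In the fit all GFP+ arrays are marked D_S and no GFP- array is, so by that reading starting cell and strain cannot be told apart. The protocol describes the empty vector for Treg and Tconv cells, and its use in scurfy mock cells was inferred from the label.

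Foxp3 is a forkhead transcription factor of the X chromosome that sets up the programme of regulatory T cells and represses cytokine genes such as Il2. MHC class II molecules present peptides to CD4+ T cells. In the mouse they are made by B cells, dendritic cells and macrophages under the coactivator Ciita, and mouse T cells make little of them. B cells are further marked by the antigen receptor chains Ighm, Cd79a and Cd79b, the surface protein Ms4a1 (CD20) and the transcription factor Pax5.

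The 3 class II promoters shown are those, among 8 class II genes with an entry, in which the letters of a Y box were found. The Y box is the reversed CCAAT site that NF-Y binds in class II promoters, and the capitals mark it. The genes behind the 3 promoters gave opposite directions in the comparison. The RefSeq windows run from 250 bases before to 50 after the gene start, 5′ to 3′ on the gene's strand, on GRCm38.p6. They lie at chr17:34287774-34288073 on the minus strand for H2-Aa, chr17:34305617-34305916 on the plus strand for H2-Eb1 and chr17:34092129-34092428 on the plus strand for H2-Oa.
H2-Aa: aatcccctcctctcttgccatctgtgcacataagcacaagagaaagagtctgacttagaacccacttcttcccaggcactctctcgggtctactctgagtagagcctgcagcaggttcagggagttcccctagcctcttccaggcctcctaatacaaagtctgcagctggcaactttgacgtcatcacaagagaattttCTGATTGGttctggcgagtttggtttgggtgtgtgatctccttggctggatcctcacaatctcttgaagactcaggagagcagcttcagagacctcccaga
H2-Eb1: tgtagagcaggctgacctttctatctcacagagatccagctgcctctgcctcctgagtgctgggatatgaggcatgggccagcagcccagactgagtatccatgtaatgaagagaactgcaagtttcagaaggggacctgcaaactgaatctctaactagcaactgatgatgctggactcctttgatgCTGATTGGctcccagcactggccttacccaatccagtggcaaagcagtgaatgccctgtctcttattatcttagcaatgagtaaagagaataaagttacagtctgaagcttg
H2-Oa: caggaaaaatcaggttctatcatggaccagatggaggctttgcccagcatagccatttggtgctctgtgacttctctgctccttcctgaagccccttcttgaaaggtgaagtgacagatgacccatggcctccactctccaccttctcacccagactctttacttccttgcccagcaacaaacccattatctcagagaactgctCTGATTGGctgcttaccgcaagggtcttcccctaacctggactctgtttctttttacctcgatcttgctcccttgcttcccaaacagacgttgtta
The letters CTGATTGG, searched on both strands, begin 51 bases before the gene start in H2-Aa, 62 before in H2-Eb1 and 46 before in H2-Oa. They were present in 3 of the 8 class II genes with a promoter entry (37.5%) and in 1346 of 32851 promoters of the same length (4.1%). The match is a description of these windows and of nothing bound there.

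The values are probe set intensities on a linear scale, and every difference below is Foxp3-labelled minus mock on the scale log2(intensity + 16), with the fit's standard error (SE). The added 16 shrinks differences of dim probe sets. Array medians ran from 18.77 to 32 and 75th percentiles from 123.1 to 187.6 over the 8 arrays. Replicates correlated at 0.966 in scurfy Foxp3, 0.954 in scurfy mock, 0.981 in Tconv Foxp3 and 0.975 in Tconv mock. Scurfy Foxp3 array 1 correlated best with scurfy mock array 2 (0.98), an array of the other label. The labels do not say whether replicates were separate animals or cultures, and the p-values therefore cover the spread between these arrays only.

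Foxp3 itself did not rise with the label. Its probe set read 948 and 691 on scurfy Foxp3 arrays, against 1188 and 1114 on scurfy mock arrays. It read 18.04 and 18.93 on Tconv Foxp3 arrays, against 53.9 and 35.9 on Tconv mock arrays. The Foxp3-labelled arrays were thus lower in both starts without overlap, by -0.65 (SE 0.16), which was not called by limma (adjusted p = 0.557). The 2 Treg arrays read 2130 and 3128. Where the probes lie in the transcript and whether they detect a viral insert is not stated with the data. A mutated endogenous transcript can still be detected. This probe set therefore cannot check the labels, and the arrays are named by label throughout.

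Across 45037 probe sets, limma called 1 probe set with the start as a block (0.00222%) and it rose, while 0 fell. That probe set belongs to Havcr1, which encodes TIM-1, a surface receptor of activated T cells and of B cells. Havcr1 read 44.3 and 55.1 on scurfy Foxp3 arrays, against 3.32 and 4.01 on scurfy mock arrays. It read 45.1 and 55.1 on Tconv Foxp3 arrays, against 0.94 and 0.37 on Tconv mock arrays. All 4 Foxp3-labelled arrays lay above all 4 mock arrays, and the mock arrays lay below their array medians. Havcr1 rose by 1.86 (SE 0.12, limma adjusted p = 0.0408, higher on 4 of 4 arrays). The rise was 1.74 in scurfy and 1.99 in Tconv cells, and the second Havcr1 probe set differed by 0.77, also without overlap. The call was lost whenever 1 array was left out and under most other settings, while the difference stayed between 1.79 and 1.93 without any 1 array. Treg arrays, not in the fit, read 7.41 and 28.6.

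Counts over all probe sets give the background for the rest. At an unadjusted p under 0.05, 3416 probe sets passed (7.58%), 2724 higher (6.05%) and 692 lower (1.54%). Of these, 3409 (7.57% of probe sets) had the same sign in both starts, which a small p in the block fit selects for. Groups did not overlap within either start, in 1 direction, for 2287 probe sets higher (5.08%) and 765 lower (1.7%), together 6.78%, while 2431 (5.4%) separated in both starts in opposite directions. The split depended on the scale: 1742 higher and 1620 lower after quantile normalization, and 1484 higher and 1747 lower after scaling to a common 75th percentile. Within a start, limma called 0 probe sets in either; 2238 (4.97%) had an unadjusted p under 0.05 in scurfy and 5077 (11.3%) in Tconv cells. The median difference was -0.02 in scurfy and 0.12 in Tconv cells on the deposited scale. The effects had the same sign in 22198 probe sets (49.3%), and their correlation across probe sets was 0.06, a description over probe sets that are not independent.

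Among larger differences on the deposited scale, shared ones outnumbered opposite ones, through those that were higher. The count is of probe sets, of which 1 gene can have several, and it was not repeated after normalization. At least 1 log2 unit in both starts was reached by 141 probe sets higher (0.313%) and 40 lower (0.0888%), against 98 in opposite directions (0.218%). The higher ones named 79 genes, of which 9 stood in the class II, B cell or myeloid lists. The lower ones named 30 genes, with 0 in those lists. On the array these lists held 10, 13 and 17 of 18193 genes. Their members were chosen with earlier results of these data known. Igk, H2-Ea and Pou2af1 were among the higher genes but stood outside the lists.

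**Figure D1:**
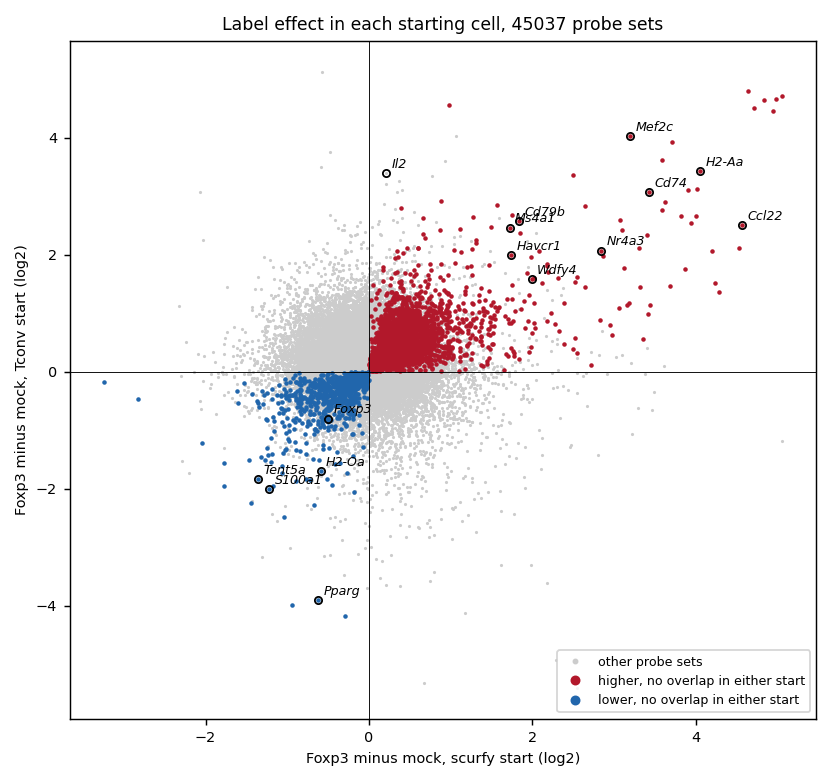
Each point is 1 probe set, with the Foxp3 minus mock difference in scurfy cells on the x axis and in Tconv cells on the y axis (log2 of intensity + 16). Red and blue mark probe sets whose groups do not overlap in either start, in 1 direction, and named genes are circled. The cloud has little slope (r = 0.06), and H2-Aa, Cd74, Mef2c and Ccl22 stand out at the upper right.

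After Havcr1 the genes with the smallest p among those higher on all Foxp3-labelled arrays of both starts were Wdfy4, Cx3cl1, Lrp11, H2-Ab1, Rasgef1b, Rpl7, Cd40, Tial1 and Net1. None of these 9 was called. Wdfy4, a protein used by dendritic cells to cross-present antigen, read 87.3 and 62.7 on scurfy Foxp3 arrays, against 5.74 and 7.67 on scurfy mock arrays. Wdfy4 read 38.4 and 36.8 on Tconv Foxp3 arrays, against 2.70 and 1.08 on Tconv mock arrays. The difference of Wdfy4 was 1.79 (SE 0.14, limma adjusted p = 0.0959), and with 1 probe set per gene it was called (adjusted p = 0.0377). Its second probe set differed by -0.0035.

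Cd40, the receptor through which T cells activate B cells and dendritic cells, read 341 and 560 on scurfy Foxp3 arrays, against 128 and 142 on scurfy mock arrays. Cd40 read 134 and 151 on Tconv Foxp3 arrays, against 64.6 and 51.8 on Tconv mock arrays. Its difference was 1.34 (SE 0.19, limma adjusted p = 0.447), and all 3 of its probe sets were positive. Cx3cl1, the membrane-bound chemokine fractalkine, read 76.2 and 87.4 on scurfy Foxp3 arrays, against 23.9 and 22.9 on scurfy mock arrays. Cx3cl1 read 20.9 and 27.0 on Tconv Foxp3 arrays, against 4.84 and 5.33 on Tconv mock arrays, a difference of 1.11 over both starts. The 4 Cx3cl1 probe sets ran from 0.02 to 1.11, and 2 were higher without overlap. The Ras exchange factor Rasgef1b differed by 1.10. For Rpl7, a ribosomal protein, and Tial1, an RNA-binding protein, the separation held in 1 of 3 and 1 of 5 probe sets.

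**Figure D2:**
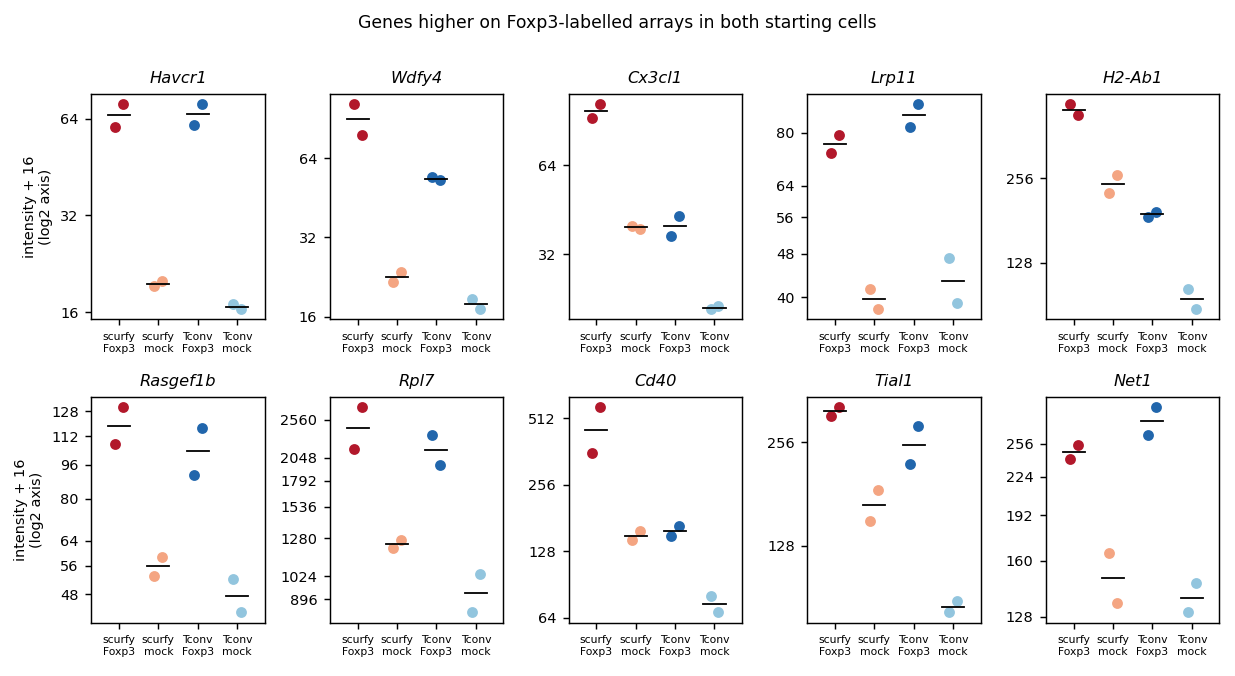
Intensity + 16 on a log2 axis for the 10 genes higher on Foxp3-labelled arrays with the smallest p, with 1 point per array and the mean of logs as a line. In each panel both Foxp3-labelled points lie above both mock points of the same start, and for Havcr1 the scurfy and Tconv points nearly coincide.

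The MHC class II genes were among the largest shared differences, although no member was called. Of 10 members on the array, 8 were positive, against 61.2% of all genes. In the class II list 6 were higher without overlap in either start and 1 was lower, against 5.38% and 1.73% of 18193 genes. At an unadjusted p under 0.05, 6 were higher and 1 lower, against 6.63% and 1.64% of genes. Their median difference was 0.96, beside 0.06 over all genes. After quantile normalization or scaling to the 75th percentile, 4 members were higher without overlap.

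H2-Aa, the alpha chain of I-A, read 1114 and 1685 on scurfy Foxp3 arrays, against 0.40 and 412 on scurfy mock arrays. H2-Aa read 213 and 308 on Tconv Foxp3 arrays, against 8.29 and 10.6 on Tconv mock arrays. The scurfy mock arrays thus differed widely from each other, while the Tconv mock arrays were both under their array medians. The difference of H2-Aa was 3.74 (SE 0.91, limma adjusted p = 0.557), at 2.73 to 4.61 when single arrays were left out. The 4 H2-Aa probe sets ran from 0.07 to 3.74, and 3 were higher without overlap.

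Cd74, the invariant chain that escorts class II molecules, read 2041 and 3207 on scurfy Foxp3 arrays, against 48.6 and 870 on scurfy mock arrays. Cd74 read 439 and 421 on Tconv Foxp3 arrays, against 51.4 and 25.8 on Tconv mock arrays. Its difference was 3.25 (SE 0.74, limma adjusted p = 0.557). H2-Eb1, the I-E beta chain, read 1192 and 1409 on scurfy Foxp3 arrays, against 8.15 and 474 on scurfy mock arrays. H2-Eb1 read 283 and 392 on Tconv Foxp3 arrays, against 21.6 and 5.66 on Tconv mock arrays, a difference of 3.60 (SE 0.84). In each of these 3 genes scurfy mock array 2 carried an intermediate signal.

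H2-Ab1, the I-A beta chain, was tighter between replicates. Its brightest probe set read 938 and 905 on scurfy Foxp3 arrays, against 426 and 503 on scurfy mock arrays. H2-Ab1 read 286 and 366 on Tconv Foxp3 arrays, against 161 and 144 on Tconv mock arrays. The difference was 0.99 (SE 0.12, limma adjusted p = 0.306), and all 3 probe sets of H2-Ab1 were higher without overlap. The DM chain H2-DMb2 differed by 1.51 and the DO beta chain H2-Ob by 0.93. Of the 3 H2-DMb2 probe sets 1 was higher without overlap.

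H2-Oa, the alpha chain of DO, which restrains peptide loading by DM, ran the other way. It read 306 and 262 on scurfy Foxp3 arrays, against 503 and 375 on scurfy mock arrays. H2-Oa read 153 and 103 on Tconv Foxp3 arrays, against 459 and 433 on Tconv mock arrays. The difference was -1.15 (SE 0.26, limma adjusted p = 0.557). Its promoter shares the Y box letters with H2-Aa and H2-Eb1, shown above. Ciita read 22.1 and 13.2 on scurfy Foxp3 arrays, against 15.5 and 11.7 on scurfy mock arrays, a dim probe set with overlapping groups, and its difference over both starts was 0.19. The protease Ctss (-0.38) and the brightest H2-DMa probe set (0.23) also overlapped. The other H2-DMa probe set (0.47) was higher without overlap.

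B cell markers were higher on the same Foxp3-labelled arrays, with no member called. Of 13 members on the array, 12 were positive, against 61.2% of all genes. Without overlap 6 were higher and 0 lower, against 5.38% and 1.73% of all genes. In the same list 9 had an unadjusted p under 0.05, against 6.63% of all genes higher by that rule, and 0 were called. Their median difference was 1.09. Cd79b read 201 and 500 on scurfy Foxp3 arrays, against 53.9 and 111 on scurfy mock arrays. Cd79b read 114 and 172 on Tconv Foxp3 arrays, against 10.6 and 9.87 on Tconv mock arrays. Both starts separated, and the difference was 2.20 (SE 0.34, limma adjusted p = 0.447).

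Ms4a1 read 99.9 and 170 on scurfy Foxp3 arrays, against 4.46 and 80.6 on scurfy mock arrays. Ms4a1 read 78.1 and 141 on Tconv Foxp3 arrays, against 6.53 and 5.58 on Tconv mock arrays, a difference of 2.09 (SE 0.49). Ighm, the IgM heavy chain, read 763 and 3200 on scurfy Foxp3 arrays, against 5.31 and 443 on scurfy mock arrays. Its 11 probe sets included 8 that were higher without overlap, and the brightest differed by 3.33. Cd79a (2.57), Pax5 (1.30, other probe set -0.03) and the adaptor Blnk (1.09) were also higher on all Foxp3-labelled arrays of each start. The other members overlapped in at least 1 start, except Ebf1, an early B cell factor, which separated in both starts in opposite directions. Over both starts Ebf1 was the 1 member with a negative difference. Ebf1 read 39.6 and 25.7 on scurfy Foxp3 arrays, against 0.51 and 20.8 on scurfy mock arrays, but 25.2 and 15.2 on Tconv Foxp3 arrays, against 149 and 79.5 on Tconv mock arrays.

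**Figure D3:**
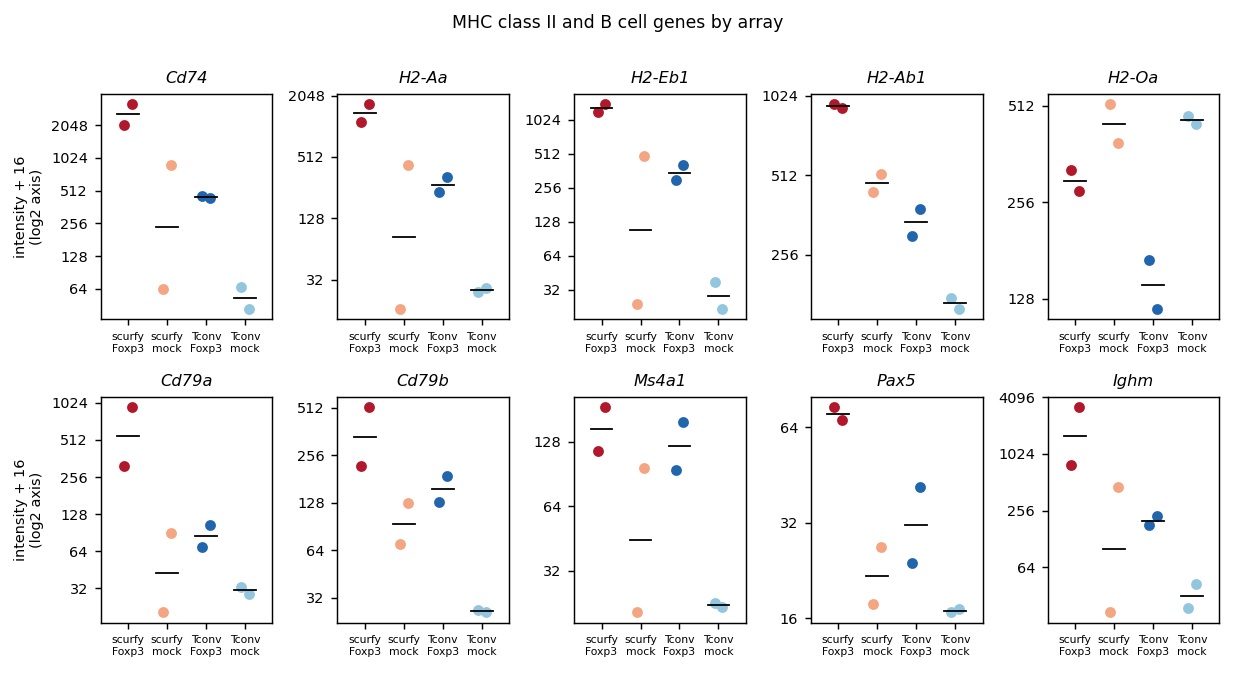
Intensity + 16 on a log2 axis for 5 class II and 5 B cell genes, with 1 point per array and the mean of logs as a line. The Foxp3-labelled points lie above the mock points of the same start in 9 panels and below them for H2-Oa, and scurfy mock array 2 is the higher mock array of that start for every panel except H2-Oa.

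Further genes outside those lists follow; they were chosen after their values were seen, and none was called. The immunoglobulin kappa gene Igk differed by 4.71, the I-E alpha chain H2-Ea by 3.82, the transcription factor Mef2c by 3.61 and the B cell coactivator Pou2af1 by 2.86. Mef2c read 346 and 700 on scurfy Foxp3 arrays, against 0.79 and 168 on scurfy mock arrays. Mef2c read 292 and 274 on Tconv Foxp3 arrays, against 3.69 and 1.06 on Tconv mock arrays. Ccl22, a chemokine for CCR4, differed by 4.57 in scurfy and 2.50 in Tconv cells, and the actin-bundling protein Fscn1 by 4.28 and 1.36. Cd86, a ligand of CD28 picked in the same way, differed by 3.03 in scurfy cells and by 0.26 in Tconv cells, where its groups overlapped. The test of the difference between starts called 0 probe sets, with 3458 (7.68%) at an unadjusted p under 0.05.

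Markers of other cells moved with these genes as follows. The summed intensity of the 13 B cell markers was 1714 and 5142 on scurfy Foxp3 arrays, against 113.3 and 933.9 on scurfy mock arrays. On Tconv Foxp3 arrays it was 563.8 and 882, against 238.8 and 174.3 on Tconv mock arrays. Between 1 and 7 of the 13 markers lay under the array median on Foxp3-labelled arrays, against 6 to 12 on mock arrays. The myeloid sum of 17 markers was 847.3 and 907.7 on scurfy Foxp3 arrays, against 129.2 and 307.1 on scurfy mock arrays. On Tconv Foxp3 arrays the myeloid sum was 181.7 and 200.3, against 179.1 and 85.09 on Tconv mock arrays.

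Among the 17 myeloid markers, 11 were positive and 6 negative, with a median of 0.05. Without overlap 5 were higher, against 5.38% of all genes, and 3 after quantile normalization or scaling to the 75th percentile. The largest difference was that of the oxidase subunit Cybb (1.97), which B cells also express. Fcer1g (1.33) and Ly86 (1.32) were likewise higher without overlap in both starts. Fcer1g read 127 and 118 on scurfy Foxp3 arrays, against 10.7 and 29.0 on scurfy mock arrays. Cd14 stayed between 0.54 and 7.20 on all 8 arrays. The 13 T cell markers summed to 36620 and 32730 on scurfy Foxp3 arrays, against 39390 and 37110 on scurfy mock arrays. On Tconv Foxp3 arrays they summed to 31410 and 36870, against 27570 and 27440 on Tconv mock arrays. Cd4 read 4023 and 3810 on scurfy Foxp3 arrays, against 3719 and 3868 on scurfy mock arrays and differed by 0.03 over both starts. Of the 13 T cell markers 0 were higher without overlap and 2 were lower, against 5.38% and 1.73% of all genes. The 2 were Thy1 (-0.21) and Trat1 (-1.72), whose scurfy mock arrays read 1334 and 10.7. None of the 13 was called. In bulk RNA, more cells of a type and more of its RNA per cell cannot be told apart. The part of B cell, dendritic or myeloid RNA in the shared difference was not tested.

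Of the genes lower on Foxp3-labelled arrays none was called. None of the 10 with the smallest p stood in the B cell or myeloid lists, but H2-Oa, described above, stood in the class II list. S100a1, a calcium-binding protein, read 79.5 and 71.2 on scurfy Foxp3 arrays, against 174 and 222 on scurfy mock arrays. S100a1 read 11.3 and 7.88 on Tconv Foxp3 arrays, against 85.8 and 87.7 on Tconv mock arrays. Replicates were close in each group, and the difference was -1.61 (SE 0.19, limma adjusted p = 0.306). Tent5a, a poly(A) polymerase, read 392 and 348 on scurfy Foxp3 arrays, against 1302 and 726 on scurfy mock arrays. Tent5a read 135 and 56.0 on Tconv Foxp3 arrays, against 275 and 465 on Tconv mock arrays, a difference of -1.60 (SE 0.32).

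Map3k20, a stress kinase of the MAP kinase cascade, read 232 and 150 on scurfy Foxp3 arrays, against 534 and 303 on scurfy mock arrays. Map3k20 read 179 and 133 on Tconv Foxp3 arrays, against 477 and 392 on Tconv mock arrays. The difference was -1.22 (SE 0.23), and all 4 of its probe sets were negative. Slc30a2, a zinc transporter, differed by -1.57, Arfgef3 by -1.29, the protease Klk8 by -0.93, the membrane glycoprotein Gpm6b by -0.70 and the adhesion adaptor paxillin, Pxn, by -0.58. Anxa2, which binds phospholipids, differed by -1.09 in 1 probe set, while the 3 probe sets of the gene ran from -1.09 to 0.15.

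**Figure D4:**
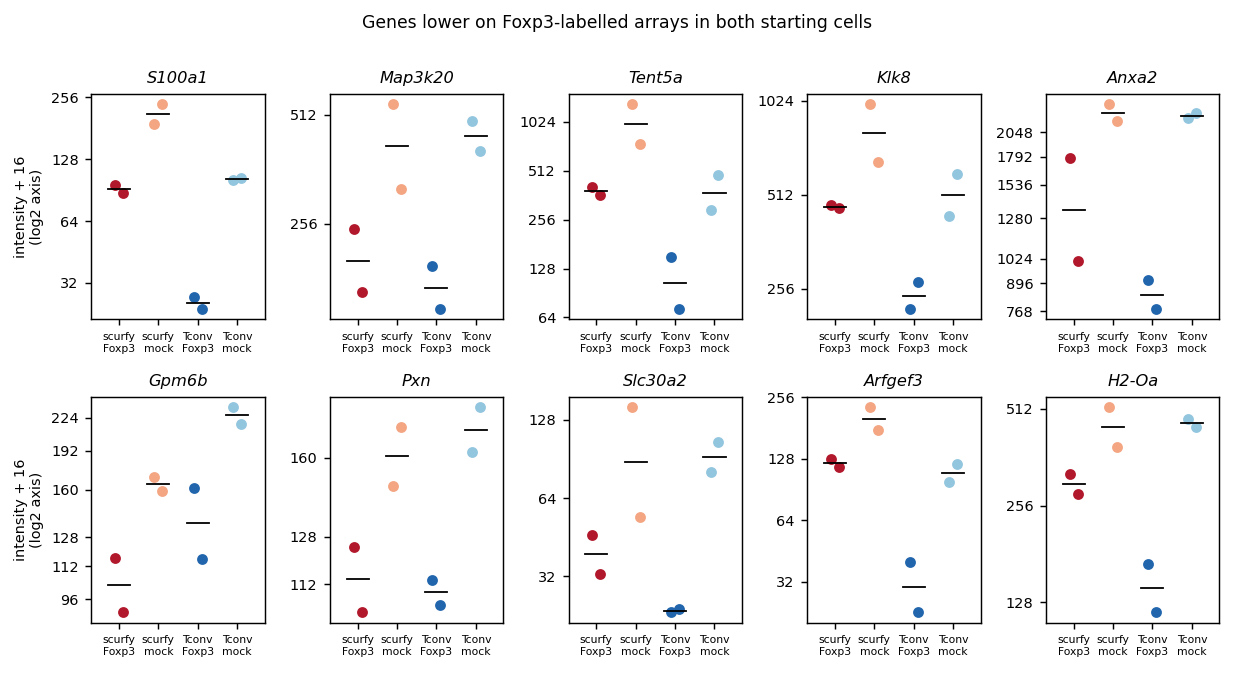
Intensity + 16 on a log2 axis for the 10 genes lower on Foxp3-labelled arrays with the smallest p, with 1 point per array and the mean of logs as a line. Both Foxp3-labelled points lie below both mock points of the same start in every panel, and for S100a1 the difference is -1.22 in scurfy and -2.01 in Tconv cells.

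Lipid metabolism held single genes that were lower in both starts, while no cholesterol synthesis gene was lower without overlap in both. Scd1, which desaturates fatty acids and was chosen after its values were seen, differed by -1.39. It read 176 and 180 on scurfy Foxp3 arrays, against 998 and 200 on scurfy mock arrays. Scd1 read 837 and 116 on Tconv Foxp3 arrays, against 982 and 894 on Tconv mock arrays. In each start 1 array thus carried most of the difference. Another Scd1 probe set differed by -1.23 and overlapped in at least 1 start. Of 16 cholesterol synthesis genes 15 were negative and 1 was positive, against 61.2% positive among all genes. Without overlap 0 were higher and 0 lower, against 5.38% and 1.73% of all genes, and 0 were called. For 16 genes, 0 lower is near the share of all genes. The median of the 16 was -0.85 in scurfy and -0.004 in Tconv cells. The pathway summed to 12850 and 12630 on scurfy Foxp3 arrays, against 31330 and 13630 on scurfy mock arrays, so scurfy mock array 1 alone stood high, and without it the block median was -0.17. The nuclear receptor Pparg was lower without overlap in both starts, by -0.62 in scurfy and -3.91 in Tconv cells.

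Genes induced early by the T cell receptor were positive in 22 of 30, against 61.2% of all genes. Of these 30 genes 4 were higher without overlap, against 5.38% of all genes, 0 were called, and the median was 0.35. The orphan nuclear receptor Nr4a3 read 388 and 450 on scurfy Foxp3 arrays, against 2.61 and 181 on scurfy mock arrays. Nr4a3 read 707 and 1395 on Tconv Foxp3 arrays, against 281 and 179 on Tconv mock arrays. Its difference was 2.46 (SE 0.69, limma adjusted p = 0.579), and the related Nr4a1 and Nr4a2 differed by 1.46 and 1.70 with overlap in 1 start each. Myc (0.70) and the phosphatase Dusp2 (0.72) were higher without overlap, and Ier3 (-1.72) was not. The summed intensity of this list was lowest on scurfy mock array 1, at 22170, and without that array its median was 0.15; without scurfy mock array 2 it was 0.58.

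Cell cycle genes were positive in 27 of 32, against 61.2% of all genes, and 4 were higher without overlap, against 5.38%. None was called, and the median was 0.24, at 0.14 without Tconv Foxp3 array 2 and 0.42 without scurfy Foxp3 array 2. By start the median was 0.06 in scurfy and 0.47 in Tconv cells, so most of it came from Tconv cells. Over all genes it was -0.01 and 0.13. The cyclins Ccne1 and Ccne2, which drive entry into S phase, differed by 0.50 and 0.72. Of the BCL2 family, the pro-apoptotic Bcl2l11 (BIM) read 1866 and 2200 on scurfy Foxp3 arrays, against 990 and 949 on scurfy mock arrays. Bcl2l11 read 2610 and 3199 on Tconv Foxp3 arrays, against 1378 and 449 on Tconv mock arrays. Both starts separated, with a difference of 1.45 (SE 0.35, limma adjusted p = 0.557), and Pmaip1 (NOXA) differed by 0.78.

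Treg genes did not share a direction. Of 29 surface and effector molecules 13 were positive and 16 negative, 0 were called, and the median was -0.08. The count higher without overlap was 2, a share near the 5.38% of all genes, and 0 were lower. The 2 were the homing receptor Gpr15 and the ectoenzyme Nt5e (CD73). Gpr15 read 263 and 347 on scurfy Foxp3 arrays, against 110 and 90.0 on scurfy mock arrays, a difference of 1.10 over both starts. Il2ra, the IL-2 receptor alpha chain, differed by -0.08 (SE 0.13), Ctla4 by -0.50 (SE 0.36), Tnfrsf18 (GITR) by -0.09 (SE 0.21), Ikzf2 (Helios) by 0.27 (SE 0.17) and Ikzf4 by -0.18 (SE 0.14). Il2ra separated in both starts in opposite directions, higher on Foxp3-labelled arrays in scurfy and lower in Tconv cells, and the other 4 overlapped in at least 1 start.

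Of the genes that Foxp3 represses in textbook accounts, 10 of 13 were positive, against 61.2% of all genes, and 0 were called. The cytokine Tnf was the 1 member higher without overlap, a share near the 5.38% of all genes. Il2 read 7.01 and 25.02 on scurfy Foxp3 arrays, against 6.96 and 14.8 on scurfy mock arrays. Il2 read 254 and 1298 on Tconv Foxp3 arrays, against 11.3 and 101 on Tconv mock arrays, so it separated in Tconv cells alone. Over both starts Il2 differed by 1.80 (SE 0.86, limma adjusted p = 0.694), Ifng by 1.25 (SE 0.67), Il7r by -0.61 (SE 0.34) and Pde3b by 0.18 (SE 0.68).

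**Figure D5:**
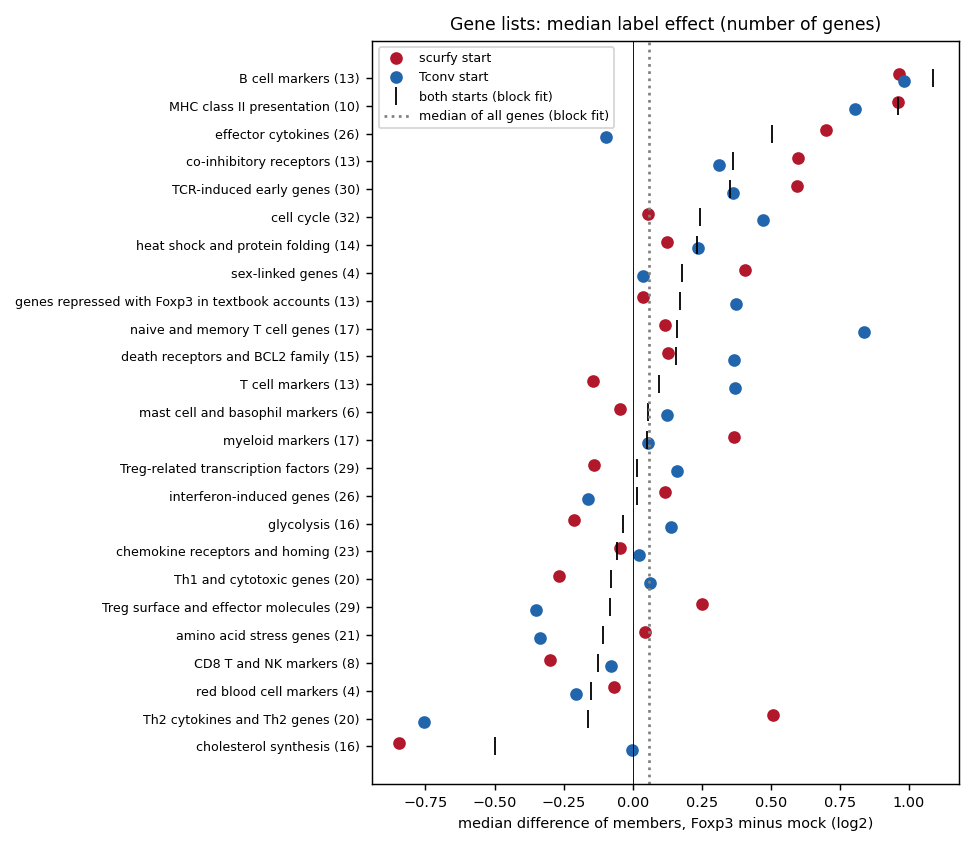
Median Foxp3 minus mock difference (log2) of each gene list, with red points for scurfy cells, blue points for Tconv cells and a tick for the block fit; the dotted line is the median of all genes. B cell markers had medians of 0.97 in scurfy and 0.98 in Tconv cells, MHC class II genes 0.96 and 0.81, and naive and memory T cell genes 0.12 and 0.84, while Th2 genes (0.51 and -0.76) point opposite ways.

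Promoter letters were also counted for the genes named above. The forkhead letters TGTTTAC, searched on both strands, occurred in 1199 of 32851 promoters (3.65%) and in 0 of the 7 higher, 0 of the 9 lower, 0 of the 8 class II and 0 of the 9 B cell genes with an entry. The AP-1 letters TGANTCA occurred in Havcr1 among the 7 higher genes and in Anxa2 and Arfgef3 among the 9 lower ones. They also occurred in 2 of the 8 class II genes (H2-DMa and H2-DMb1) and 1 of the 9 B cell genes (Fcer2a). Among all promoters 2565 held them (7.81%). The sets were counted by gene and all promoters by entry.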

How the data were processed

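Biotinylated cDNA (NuGEN FL-Ovation) from total RNA was hybridised to Affymetrix Mouse Genome 430 2.0 arrays. The authors deposited a linear intensity for each probe set and array, made with Affymetrix Expression Console, per the submitters' processing notes; no label or header gives the summary method or the scaling. Of 45101 probe sets, 64 controls were left out and 45037 tested. GEO's platform annotation gave 34945 probe sets 1 symbol, 932 several and 9160 none, for 18193 genes. Intensities were converted to log2 after adding 16, without further normalization. The limma package 3.58.1 under R 4.3.3 (lmFit, then eBayes, two-sided, Benjamini-Hochberg over all probe sets) fitted the label with the starting cell as a block on 8 arrays, with 5 residual degrees of freedom; a probe set was called at an adjusted p under 0.05. A 4-group fit gave the difference within each start and the difference between starts. The small number of arrays limits precision.

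No overlap means that both Foxp3-labelled arrays lie on 1 side of both mock arrays within each start. Gene lists (25, with 391 of 430 genes on the array, each by its brightest probe set) were described by counts and medians, without a test. The members and lists were chosen with earlier results of these data known. Named genes were the called ones, filled to 10 per direction by smallest p among genes without overlap in either start and a mean of at least 64 in 1 group, a fixed set of Treg and class II genes, up to 3 per list and 6 per direction for the difference between starts; others are said to be chosen after their values were seen, and remaining class II and B cell members were shown because they complete those lists. On data simulated for this comparison, the fit used 45037 probe sets. It found 13 of 67 altered at 1 log2 unit, 60 of 67 at 2 units and 65 of 66 at 3 units. There were 10 false among 148 calls, and 0 calls without change. Changes were placed only in probe sets with a mean above 64, and Havcr1 was dimmer. The noise was normal and equal on all arrays. In the data, replicates were over 1 log2 unit apart in 11.1% of probe sets for scurfy Foxp3 and 3.02% for Tconv Foxp3. Alternatives were 2 normalizations, pseudocounts of 1 and 64, 2 filters, 1 probe set per gene, eBayes trend and robust options, array weights, all 10 arrays, no block, the replicate number as a block, and omission of each array in turn. Promoters are from RefSeq on GRCm38.p6, matched by symbol for 7 of the 10 higher, 9 of the 10 lower, 8 of 11 class II and 9 of 15 B cell genes.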

Additional observations from a re-analysis of the deposited data

Results flagged for a closer look

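In 9 named genes both Foxp3-labelled arrays lay on one side of both mock arrays in scurfy cells and on the other side in Tconv cells. The effect in scurfy cells minus that in Tconv cells was 0.43 for Il2ra, 2.00 for Socs3, 2.22 for Jup, 2.25 for Mmp13, 2.57 for Tmem132a and 2.77 for Ebf1. It was -1.64 for Tbxa2r, -1.97 for Zfp318 and -2.15 for Gphn. The limma test of the difference between starts gave adjusted p-values from 0.577 to 0.691 for these genes, so none was called. Of all probe sets, 5.4% showed this pattern. Jup, Mmp13, Tmem132a, Tbxa2r, Zfp318 and Gphn had been named for their small p in that same test. Mmp13 was near the floor in Tconv cells, at 0.12 and 0.11 on Foxp3 arrays, against 0.42 and 0.23 on mock arrays. Its Tconv difference was only -0.02.

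The Foxp3(+) arrays were not used in the comparison. Their summed B cell marker intensity was 162.5 on the Treg replicate 1 array and reached 1591 on the replicate 2 array, which lay above the highest mock array in the comparison (933.9).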

How the results depend on the processing

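Of the count of 1 called probe set, whose direction was shared by both starts, 0 were left with pseudocounts of 1 or 64, after quantile normalization, at a common 75th percentile, with either filter on dim probe sets, eBayes with trend and robust options, or all 10 arrays. The count was 1 with array weights (Havcr1 adjusted p = 0.0262) and without the starting-cell block (0.0136), and 2 with 1 probe set per gene. Leaving out each array gave 0 to 0 calls. The labels do not say whether replicate numbers pair the arrays. Over all probe sets, the deviations of same-numbered arrays correlated at 0.019 in scurfy and 0.102 in Tconv cells. With 2 arrays per group and many dim probe sets, these values cannot settle the pairing. The replicate block gave 0 calls. The Havcr1 difference ran from 0.78 (pseudocount 64) to 4.20 (pseudocount 1), by construction of the scale. Probe sets higher without overlap numbered 1484 at the common 75th percentile, 927 with the 75th percentile filter, 979 with 1 probe set per gene and 3037 to 7800 without single arrays (7800 without scurfy Foxp3 array 2, 4999 and 4559 without scurfy mock arrays 1 and 2, 3470 without Tconv mock array 1). Those lower numbered 1620 after quantile normalization, 1747 at the common 75th percentile, 340 with the median filter, 154 with the 75th percentile filter, 315 with 1 probe set per gene and 1248 to 2282 without single arrays; fewer arrays or probe sets change such counts by construction. The B cell median was 2.76 with a pseudocount of 1, 0.49 with 64 and 2.57 with the 75th percentile filter, and 0.74 to 1.34 without single arrays; the class II median was 0.68 to 1.29 over all alternatives. The sign changed for some uncalled genes: Ebf1 was 0.053 with a pseudocount of 1. Without single arrays, Il2ra ran from -0.153 to 0.015 (above 0 without replicate 2 of Tconv Foxp3), Tnfrsf18 from -0.245 to 0.052, Pde3b from -0.360 to 0.816, Ms4a2 from -0.022 to 0.154, Xist from -0.169 to 0.384 and Ebf1 from -0.930 to 0.014; the cause was not tested. T cell markers were positive in 9 of 13 on the deposited scale, 6 after quantile normalization and 5 at the common 75th percentile.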

Other observations

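Other list members and further genes, with values only and none called, were as follows. The transcription factor Tox differed by 1.48 and was higher without overlap in both starts, with 0.69 in scurfy and 2.28 in Tconv cells. Bach2, which restrains effector programmes in T cells, differed by 1.62, the costimulatory receptor Cd27 by 0.99 and the hyaluronan receptor Cd44 by 0.82. The hypoxia factor Epas1 differed by -1.48, with 4187 and 2179 on scurfy Foxp3 arrays, against 5441 and 4280 on scurfy mock arrays. Trat1 read 5.15 and 2.90 on scurfy Foxp3 arrays, against 1334 and 10.7 on scurfy mock arrays, so 1 array held nearly all of its signal.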
